A study of Mus musculus with 16 samples.

Results

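Atf3, Atf4, Atf5, Ddit3, Cebpb and Cebpg encode basic leucine zipper (bZIP) transcription factors that cells use in stress responses. They were listed by gene name, with no threshold on a measured value, though earlier results of these data were known. They are 6 of the 19391 genes that passed the filter on low counts, out of 36528 gene identifiers. All 6 of 6 passed that filter. Optic nerve crush cuts the axons of ganglion cells, the output neurons of the eye, and whole mouse retinas were taken for RNA at day 3. Mice received the vehicle MCT or GNE-3511, which blocks DLK (dual leucine zipper kinase, encoded by Map3k12), a kinase that signals axon damage to the nucleus. The inhibitor was given at 75 mg/kg at 60 h and at 68 h after the crush, so the earlier part of the response ran without it. The 16 libraries were 3 uncrushed and 3 crushed retinas with vehicle, and 5 uncrushed and 5 crushed retinas with the inhibitor (uncrushed DLKi and crushed DLKi). No mutant allele, strain, age or sex is given in the labels. The labels state 5 mice per drug but tie no retina to a mouse. Crushed and uncrushed libraries may therefore come from the same animals, and each p rests on the spread between libraries, which may be partly technical.

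bZIP factors bind DNA as dimers, and the partner decides which sites a factor prefers. In the integrated stress response, kinases phosphorylate the translation initiation factor eIF2α, general protein synthesis slows, and the Atf4 messenger is translated more. ATF4 then activates genes for amino acid supply and the genes of other stress bZIP factors, among them Atf3, Atf5, Ddit3 and Cebpb. Upstream reading frames give Atf5 and Ddit3 messengers a similar control. Poly(A) RNA levels, the quantity measured here, do not show translation, phosphorylation or dimer formation. In injured ganglion cells, DLK signalling is known to act through JUN and through this stress arm.

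The libraries held 22.4 to 44.7 M counted reads. Uncrushed vehicle replicate 1 (22.4 M) and crushed vehicle replicate 3 (25.4 M) were the shallowest, and an earlier analysis of these data had set them apart. Crushed vehicle replicate 2 and uncrushed vehicle replicate 3 have sample numbers in the labels that lie apart from those of the other 14 libraries. Each comparison was therefore also made without each of these pairs. The lowest member count in any library was 58 reads, for Cebpb, and the lowest for Atf3 was 158. The transcripts of the drug's targets, Map3k12 (DLK) and Map3k13 (the related kinase LZK), had log2 changes between -0.05 and 0.06 in all 5 contrasts, and none was called. A kinase inhibitor acts on the protein, so this does not test whether the drug reached its target.

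The 250 bases before the annotated start of 4 of the genes are shown here. Atf3, Ddit3 and Atf5 are the members whose RNA rose after crush, and Atf4 is the most abundant member. Sequences and coordinates are from RefSeq (GRCm38.p6), which gave a window for all 6 genes, and each is written 5′ to 3′ on the strand of the gene. Capitals mark matches on either strand to the C/EBP-ATF response element letters TGATGNAA, the cyclic AMP response element letters TNACGTCA, its core TGACG, or the AP-1 letters TGANTCA.
Atf3, chr1:191183334-191183583, minus strand: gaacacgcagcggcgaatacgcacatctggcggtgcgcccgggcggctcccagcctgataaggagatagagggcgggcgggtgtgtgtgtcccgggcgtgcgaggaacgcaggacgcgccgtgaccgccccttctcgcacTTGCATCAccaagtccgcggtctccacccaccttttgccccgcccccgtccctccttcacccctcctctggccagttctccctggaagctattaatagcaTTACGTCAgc
Ddit3, chr10:127290543-127290792, plus strand: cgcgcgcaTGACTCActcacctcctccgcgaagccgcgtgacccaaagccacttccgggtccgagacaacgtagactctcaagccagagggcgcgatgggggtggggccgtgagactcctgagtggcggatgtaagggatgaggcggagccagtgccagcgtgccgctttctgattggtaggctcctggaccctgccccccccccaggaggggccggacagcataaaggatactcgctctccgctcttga
Atf5, chr7:44816659-44816908, minus strand: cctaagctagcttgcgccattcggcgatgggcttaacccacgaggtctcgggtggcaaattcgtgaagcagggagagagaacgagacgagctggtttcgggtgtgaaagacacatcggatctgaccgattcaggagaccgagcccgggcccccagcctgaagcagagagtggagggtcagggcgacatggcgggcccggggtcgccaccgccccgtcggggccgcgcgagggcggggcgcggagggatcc
Atf4, chr15:80254934-80255183, plus strand: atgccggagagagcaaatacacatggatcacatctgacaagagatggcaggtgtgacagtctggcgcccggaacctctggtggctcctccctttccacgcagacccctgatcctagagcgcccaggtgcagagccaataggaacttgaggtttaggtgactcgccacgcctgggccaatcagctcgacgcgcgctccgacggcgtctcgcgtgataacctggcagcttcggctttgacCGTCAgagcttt

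The Atf3 window held both longer elements, each in 1 copy. The response element match, TTGCATCA on the strand shown, lay 110 to 103 bases before the start. The cyclic AMP element match, TTACGTCA, lay 10 to 3 bases before the start and contains the core letters, so those 2 matches overlap. Among 32851 RefSeq mouse windows of 300 bases, which add the first 50 transcribed bases, 3.97% held TGATGNAA, 2.93% held TNACGTCA, 20.8% held TGACG and 7.81% held TGANTCA. Ddit3 held 1 AP-1 match, TGACTCA, 242 to 236 bases before the start. Atf5 held none of the 4 letter strings in either of its 2 windows. Atf4 held the core letters 12 to 8 bases before the start and again 40 to 44 bases after it. Cebpb, not shown, held the core letters at 3 places, and Cebpg held none of the strings. A match describes these letters only and is not a measured binding site. The share of G and C ran from 54.7% in the other Atf5 window and 59% in Atf4 to 80.7% in Cebpb, against a median of 52.7% for all windows.

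The first comparison asked how crush changed these genes without the drug. Of the 6 genes, 3 rose after crush with vehicle (Atf3, Atf5 and Ddit3) and 0 fell, where 1.77% of all tested genes were called higher (edgeR quasi-likelihood test, Benjamini-Hochberg adjusted p of 0.05 or less over all tested genes). With the inhibitor the same 3 rose, where 3.29% of all tested genes were called higher. In Atf3, Atf5 and Ddit3 all 8 crushed libraries lay above all 8 uncrushed libraries in nRPKM, a pattern seen in 1.84% of tested genes. The value nRPKM is the authors' read count per gene length and library size, so it allows levels of different genes to be set side by side.

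**Figure D1:**
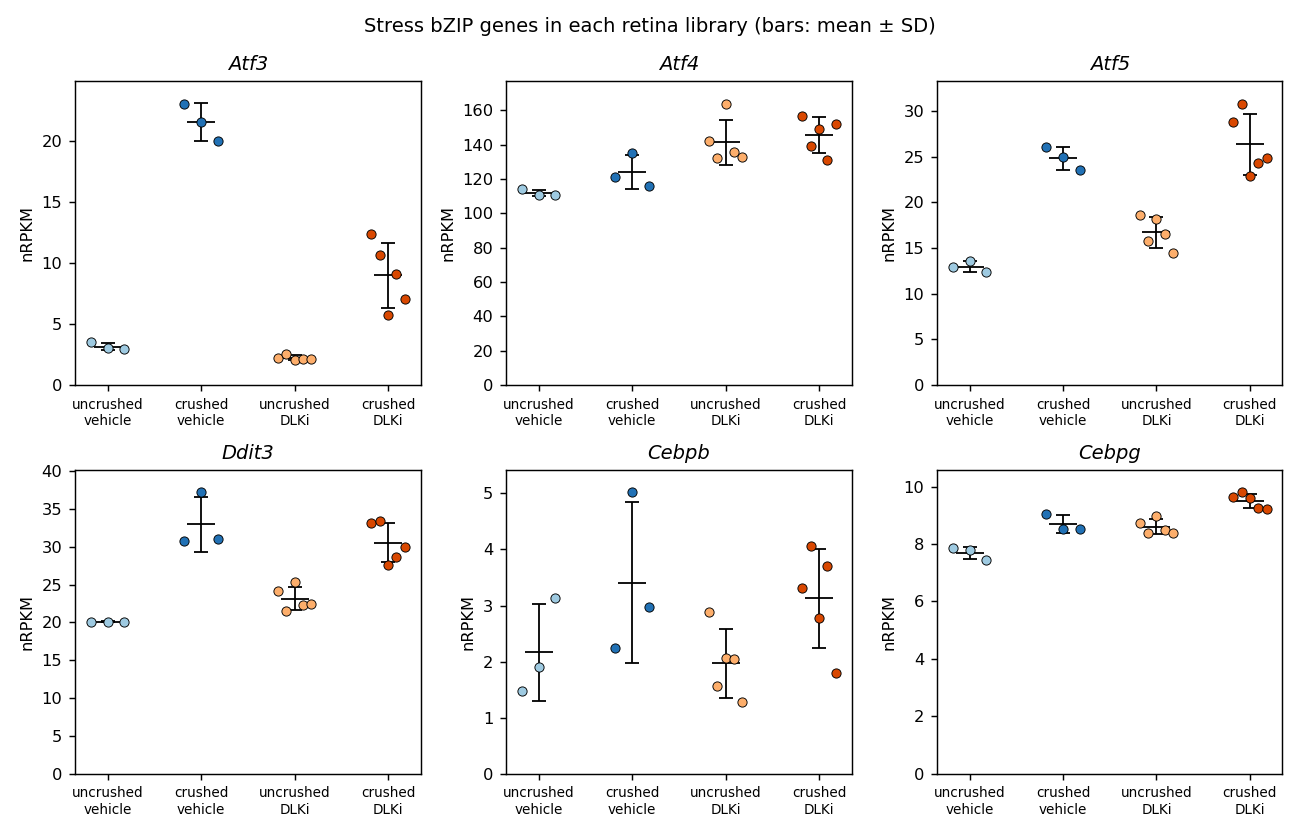
nRPKM of the 6 genes (y axes start at 0) in each of the 16 libraries (points) by group (x axis), with the mean and SD. Atf3 stands at 20 to 23.1 in crushed vehicle and at 5.72 to 12.4 in crushed DLKi, against at most 3.5 in uncrushed retina, while Atf4 lies between 111 and 164 throughout.

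Atf3, a factor that is low in most resting cells and is induced in axotomised neurons, made the largest change (Entrez 11910, GRCm38 chromosome 1, 191170296 to 191183333, minus strand). It stood at 3.5, 3.03 and 2.94 nRPKM in the uncrushed vehicle libraries and at 23.1, 21.6 and 20 in the crushed vehicle libraries. These groups were far apart, with a log2 change of 2.78 ± 0.21 (SE; adjusted p = 4.65e-07), or 6.88-fold. It stood at 2.22, 2.58, 2.08, 2.11 and 2.15 nRPKM in uncrushed DLKi and at 12.4, 10.7, 5.72, 9.11 and 7.02 in crushed DLKi. Every crushed DLKi library was above every uncrushed library of either drug. The log2 change with the inhibitor was 2.01 ± 0.16 (adjusted p = 6.44e-07), or 4.04-fold. By p, Atf3 ranked number 8 of 19391 genes with vehicle and number 16 with the inhibitor.

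Atf5, a relative of ATF4 known for roles in neural progenitors and in the mitochondrial stress response, rose less (Entrez 107503, chromosome 7, 44812256 to 44816658, minus strand). It stood at 12.9, 13.6 and 12.4 nRPKM in uncrushed vehicle and at 26, 25 and 23.5 in crushed vehicle. The log2 change was 0.94 ± 0.11 (adjusted p = 8.23e-05). With the inhibitor it stood at 18.6, 15.8, 18.2, 16.5 and 14.5 nRPKM uncrushed and at 28.8, 30.8, 22.9, 24.3 and 24.8 crushed, a log2 change of 0.66 ± 0.08 (adjusted p = 9.83e-05). The crushed groups of the 2 drugs overlapped, and each lay above both uncrushed groups.

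Ddit3 encodes CHOP, a stress factor with known pro-apoptotic targets (Entrez 13198, chromosome 10, 127290793 to 127296291, plus strand). It stood at 20.1, 20.1 and 20 nRPKM in uncrushed vehicle and at 30.7, 37.2 and 31 in crushed vehicle. The log2 change was 0.72 ± 0.09 (adjusted p = 0.000146). With the inhibitor it stood at 24.1, 21.5, 25.3, 22.3 and 22.4 nRPKM uncrushed and at 33.1, 33.4, 27.6, 28.6 and 30 crushed, a log2 change of 0.41 ± 0.07 (adjusted p = 0.00147). The crushed groups of the 2 drugs overlapped, and crushed vehicle replicate 2 was the highest of all 16 libraries.

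Atf4, the effector of the integrated stress response, was abundant and was not called in either crush comparison (Entrez 11911, chromosome 15, 80255184 to 80257545, plus strand). It stood at 114, 111 and 111 nRPKM in uncrushed vehicle, 121, 135 and 116 in crushed vehicle, 142, 132, 164, 136 and 133 in uncrushed DLKi and 157, 139, 149, 131 and 152 in crushed DLKi. The crushed and uncrushed libraries did not overlap with vehicle and overlapped widely with the inhibitor. The log2 change with crush was 0.15 (95% interval -0.04 to 0.33, adjusted p = 0.707) with vehicle and 0.05 (-0.10 to 0.19, adjusted p = 0.876) with the inhibitor. These intervals exclude a change of the size seen in Ddit3 with either drug.

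Cebpg, a C/EBP factor without a strong activation domain of its own that pairs with ATF4, varied little (Entrez 12611, chromosome 7, 35046422 to 35056566, minus strand). It stood at 7.85, 7.78 and 7.44 nRPKM in uncrushed vehicle, 9.05, 8.51 and 8.51 in crushed vehicle, 8.72, 8.39, 8.99, 8.48 and 8.38 in uncrushed DLKi and 9.62, 9.8, 9.61, 9.25 and 9.23 in crushed DLKi. Crushed libraries lay above uncrushed libraries of the same drug, by a small step. The log2 change was 0.18 ± 0.06 with vehicle (adjusted p = 0.136) and 0.15 ± 0.04 with the inhibitor (adjusted p = 0.059), neither of which was called. DESeq2 called the change with the inhibitor (adjusted p = 0.0151).

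Cebpb, a factor of inflammatory and acute-phase responses, was the member with the lowest mean level over all libraries and varied widely within groups (Entrez 12608, chromosome 2, 167688915 to 167690432, plus strand). It stood at 1.47, 1.9 and 3.13 nRPKM in uncrushed vehicle, 2.24, 5.02 and 2.97 in crushed vehicle, 2.89, 1.56, 2.07, 2.04 and 1.28 in uncrushed DLKi and 3.31, 4.07, 2.77, 3.7 and 1.8 in crushed DLKi. Crushed and uncrushed libraries overlapped with both drugs. The log2 change was 0.65 (95% interval -0.08 to 1.38, adjusted p = 0.593) with vehicle and 0.67 (0.11 to 1.24, adjusted p = 0.218) with the inhibitor. The SD of Cebpb in a group was 28.3% to 42.2% of its mean, and an increase as large as that of Atf5 was within both intervals. Exons of Tmem189 on the other strand overlap 20.7% of its exon length, and reads carry no strand here, so some of its reads may belong to that gene. The shared exon length was 4.73% for Ddit3, 4.11% for Atf5, 1.37% for Cebpg and 0 for Atf3 and Atf4.

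Groups without overlap were common in so small a design. With vehicle, crushed libraries lay wholly above uncrushed libraries for 5 of the 6 genes (all but Cebpb), where 8.13% of tested genes did so. With the inhibitor they did so for 4 of the 6 (all but Atf4 and Cebpb), where 3.40% of tested genes did so.

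The order of levels changed with injury only at its lower end. In 16 of 16 libraries Atf4 stood above Ddit3, Ddit3 above Atf5, and Atf5 above the other 3 genes. Cebpg stood above Cebpb in 16 of 16 libraries as well. Atf3 stood above Cebpb in 14 of 16 libraries and changed places with Cebpg. Cebpg exceeded it in 3 of 3 uncrushed vehicle and 5 of 5 uncrushed DLKi libraries, in 0 of 3 crushed vehicle libraries and in 3 of 5 crushed DLKi libraries. In crushed DLKi, then, Atf3 and Cebpg were not separated beyond the spread of Atf3. Of the summed nRPKM of the 6 genes, Atf3 made up 2.00 ± 0.172% in uncrushed and 10.1 ± 0.805% in crushed vehicle retina (SD, n = 3 each), and 1.16 ± 0.172% and 3.99 ± 1.06% with the inhibitor (n = 5 each). Atf4 made up 70.9 ± 0.360% and 57.5 ± 0.545% with vehicle and 72.8 ± 1.04% and 65.0 ± 3.05% with the inhibitor. By that measure the share of Atf4 was smaller and those of the induced members larger after crush. The mean level of Atf4 itself did not fall. It was 112 uncrushed and 124 crushed nRPKM with vehicle, and 141 and 146 with the inhibitor.

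In whole retina, fewer cells of a type and less RNA per cell cannot be told apart. Markers of several cell types moved with crush, and their part in these changes was not tested. Of 15 ganglion cell markers, 10 fell with vehicle and 11 with the inhibitor, where 0.861% and 2.04% of all tested genes were called lower. The summed level of these 15 markers ran from 1191 to 1683 CPM (library-scaled counts) in uncrushed and 753 to 1080 in crushed vehicle. With the inhibitor it ran from 1478 to 1967 and from 989 to 1189. Of 14 microglia markers, 6 rose with vehicle and 11 with the inhibitor, where 1.77% and 3.29% of all tested genes were called higher. Their sums were 92.3 to 93.7 and 133 to 158 CPM with vehicle and 72.7 to 104 and 106 to 191 with the inhibitor. Of 8 gliosis genes, 6 and 7 rose, against the same shares. Their sums were 290 to 349 and 681 to 761 CPM, and 271 to 370 and 501 to 937. The vehicle count of 6 microglia markers was 1 without the 2 shallowest libraries, 0 without the 2 numbered apart, 3 with limma and 8 with DESeq2, with medians of 0.77 to 0.85, and the gliosis count of 6 was 3 without the shallowest. Of 10 leukocyte markers 1 passed the filter, and the sum stayed at or below 1.46 CPM in every library. The 8 lens markers summed to between 1.05 and 675 CPM and were higher in some uncrushed libraries. The 7 pigment epithelium markers summed to 780 CPM in uncrushed vehicle replicate 1, against 266 and 109 in the other 2 of that group and at most 376 elsewhere. Markers of rods, the most numerous cells of mouse retina, summed to 56351 to 72437 CPM in all 16 libraries. No marker of these lists was at 0 in every library.

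The next comparison asked what the inhibitor changed in crushed retina. Of the 6 genes, 1 fell (Atf3) and 0 rose, where 0.376% of all tested genes were called lower. Atf3 was at 20 to 23.1 nRPKM in the 3 crushed vehicle libraries and at 5.72 to 12.4 in the 5 crushed DLKi libraries, with no overlap. The log2 change was -1.26 ± 0.17 (SE; adjusted p = 0.00226), 0.417 times the vehicle level, and Atf3 ranked number 6 of 19391 genes by p. The crushed DLKi libraries differed among themselves by more than those of any other group, with an SD of 30.0% of the mean against 7.10% to 9.58% in the other 3 groups. Atf3 with the inhibitor was thus lower than with vehicle and still above the uncrushed level.

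**Figure D2:**
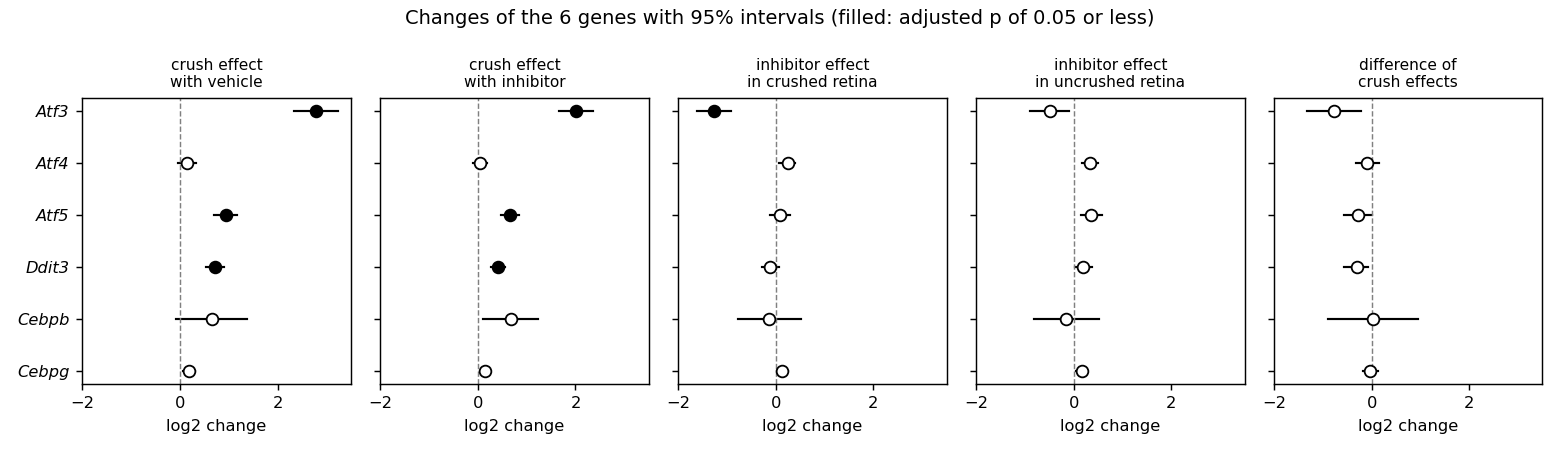
Log2 changes of the 6 genes (x axis, points) with 95% intervals (lines) in the 5 contrasts (panels); filled points have an adjusted p of 0.05 or less. Atf3, Atf5 and Ddit3 are filled in both crush panels, Atf3 alone in the panel of the inhibitor in crushed retina, and none in the last 2 panels.

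The other 5 genes were not called in that comparison. Atf5 differed by 0.08 (95% interval -0.12 to 0.29) and Ddit3 by -0.11 (-0.28 to 0.06), intervals that exclude a fall of the size of Atf3. The values for Atf4 were 0.24 (0.07 to 0.40, adjusted p = 0.21) and for Cebpg 0.13 (0.02 to 0.24, adjusted p = 0.272). Cebpb had -0.13 (-0.77 to 0.51), which leaves room for a change in either direction. Groups did not overlap for Atf3 and Cebpg, 2 of 6, where 9.55% of tested genes had crushed groups that did not overlap between the drugs. Of the 15 ganglion cell markers 3 were called higher with the inhibitor in crushed retina, where 0.129% of all tested genes were. All 15 had a positive log2 change, with a median of 0.26. Without the 2 shallowest vehicle libraries 2 were called and 13 were positive, with a median of 0.16. Without the 2 numbered apart 4 were called and 15 were positive, with a median of 0.42. Of the 8 gliosis genes 0 were called (edgeR, DESeq2 and limma; 0 at an unadjusted p under 0.05), and all 8 had a negative log2 change, with a median of -0.09. The part of either list in the change of Atf3 was not tested.

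In uncrushed retina most of these genes differed between inhibitor and vehicle libraries by small amounts that did not pass the edgeR test. Of the 6 genes 0 were called, where 0.629% of all tested genes were called in either direction (edgeR; 5 of 6 had an unadjusted p under 0.05, DESeq2 called 3 and limma 0). The 3 called by DESeq2 were Atf4, Atf5 and Cebpg. Atf4 stood at 111 to 114 nRPKM with vehicle and 132 to 164 with the inhibitor, a log2 change of 0.33 ± 0.08 (edgeR adjusted p = 0.0685, DESeq2 adjusted p = 0.004). Atf5 differed by 0.36 ± 0.10 (edgeR adjusted p = 0.103, DESeq2 adjusted p = 0.0208). The edgeR values for Cebpg were 0.16 ± 0.05 (adjusted p = 0.144) and for Ddit3 0.20 ± 0.08 (adjusted p = 0.222). Atf3 went the other way, by -0.49 ± 0.19 (adjusted p = 0.21), from 2.94 to 3.5 nRPKM with vehicle to 2.08 to 2.58 with the inhibitor. In each of these 5 genes the 2 uncrushed groups did not overlap, where 9.55% of tested genes had no overlap. All 15 ganglion cell markers had a positive log2 change here too, with 0 of 15 called by edgeR, DESeq2 or limma (4 at an unadjusted p under 0.05). Their median of 0.27 was 0.12 without the 2 shallowest vehicle libraries (0 at an unadjusted edgeR p under 0.05). It was 0.43 without the 2 numbered apart (10 at an unadjusted edgeR p under 0.05). Of 14 microglia markers 13 had a negative log2 change, with 0 called by these 3 tools (0 at an unadjusted p under 0.05). Of the 8 gliosis genes 7 had a negative log2 change, and all 7 pigment epithelium markers did, with a median of -0.74 that was 0.19 without the 2 shallowest vehicle libraries. The part of these lists was not tested.

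The test of the difference of the crush effects asked whether crush changed a gene less with the inhibitor. Of the 6 genes 0 were called, where 0.0103% of all tested genes were (edgeR; 2 of 6 had an unadjusted p under 0.05, and DESeq2 and limma called 0). Atf3 had a difference of -0.77 ± 0.26 on the log2 scale (unadjusted p = 0.00854, adjusted p = 1) and Ddit3 of -0.31 ± 0.11 (unadjusted p = 0.0136, adjusted p = 1). Atf5 had -0.28 ± 0.14 and Atf4 -0.10 ± 0.11. Cebpg and Cebpb had -0.03 ± 0.07 and 0.02 ± 0.44. In nRPKM, the mean step from uncrushed to crushed was 18.4 with vehicle and 6.76 with the inhibitor for Atf3, 12.9 and 7.43 for Ddit3, and 11.8 and 9.61 for Atf5. A smaller fold with the inhibitor was thus not established for any of the 6 by this test, while the lower Atf3 level in crushed retina was.

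The wider bZIP family gave the setting for these changes. Of 46 other bZIP genes considered 41 passed the filter, and 10 of those rose after crush with vehicle and 12 with the inhibitor. The shares of all tested genes called higher were 1.77% and 3.29%. Atf3 had the largest log2 increase of the 47 bZIP genes ranked in both comparisons, ahead of Cebpd, an acute-phase C/EBP factor (1.54 ± 0.25 with vehicle and 1.66 ± 0.20 with the inhibitor). By mean nRPKM over the 16 libraries Atf4 (134) ranked second of 52 bZIP genes, after the rod factor Nrl. Ddit3 ranked number 10, Atf5 number 13, Cebpg number 24, Atf3 number 26 and Cebpb number 33. That mean includes the crushed libraries, which raise the rank of Atf3.

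**Figure D3:**
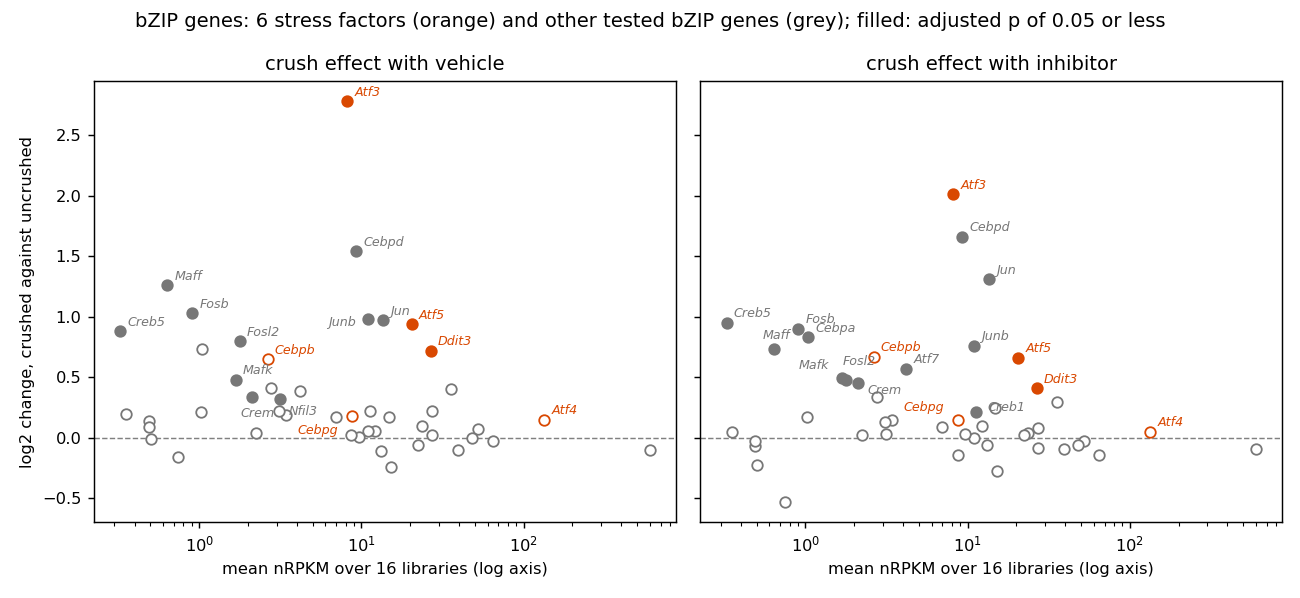
Log2 change with crush (y axis) against mean nRPKM over 16 libraries (x axis, log scale) for 47 tested bZIP genes, with vehicle (left) and inhibitor (right); the 6 stress factors are orange and filled points have an adjusted p of 0.05 or less. Atf3 is the highest point in both panels at 2.78 and 2.01, and Atf4 lies near 0 at the right.

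By class, 4 of 8 tested AP-1 genes rose with either drug, including the known DLK target Jun (0.97 ± 0.17 with vehicle, 1.31 ± 0.13 with the inhibitor) and Fosb (1.03 ± 0.17 and 0.90 ± 0.14). Junb (0.98 ± 0.21 and 0.76 ± 0.16) and Fosl2 (0.80 ± 0.17 and 0.48 ± 0.13) were the others. Of 16 ATF and CREB relatives, Crem (0.34 ± 0.08) and Creb5 (0.88 ± 0.23) rose with vehicle. With the inhibitor 4 of those 16 rose, among them Crem (0.45 ± 0.06), Creb5 (0.95 ± 0.19) and Atf7 (0.57 ± 0.13). Of 6 C/EBP and PAR-type genes, Cebpd and Nfil3 (0.32 ± 0.08) rose with vehicle, and Cebpd and Cebpa (0.83 ± 0.16) with the inhibitor. Of 11 MAF and NFE2-type genes, Maff (1.26 ± 0.21) and Mafk (0.48 ± 0.10), small MAF partners without an activation domain, rose with vehicle. With the inhibitor both rose again (0.73 ± 0.16 and 0.49 ± 0.07). With the inhibitor edgeR called Jund lower in crushed retina (-0.52 ± 0.11, adjusted p = 0.0342). In uncrushed retina it called Jun (-0.69 ± 0.15, adjusted p = 0.0402) and Crem (-0.34 ± 0.07, adjusted p = 0.0396) lower. The shares of all tested genes called lower were 0.376% in crushed and 0.366% in uncrushed retina. None of the 41 was called higher by edgeR in either, and limma called neither Jund, Jun nor Crem. The difference of the crush effects was called for 0 of the 41 (edgeR; 1 at an unadjusted p under 0.05, DESeq2 and limma 0). Without the 2 shallowest libraries 5 of the 41 rose with vehicle, and without the 2 numbered apart 4 did, Crem and Creb5 in neither case. Jund, and Jun with Crem in uncrushed retina, were not called without the libraries numbered apart, nor was Crem without the shallowest.

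Known targets of ATF4 rose after crush although the Atf4 transcript was not called. Of 29 tested targets, 14 rose and 0 fell with vehicle, where 1.77% of all tested genes were called higher. The median log2 change of the 29 was 0.51, against -0.003 for all genes. With the inhibitor 11 rose and 0 fell, with a median of 0.24, where 3.29% of all tested genes were called higher. Chac1, which degrades glutathione, rose by 1.97 ± 0.20 with vehicle and 0.58 ± 0.14 with the inhibitor. Adm2, a secreted peptide of the calcitonin family, rose by 2.90 ± 0.40 with vehicle and had 0.88 ± 0.26 with the inhibitor, which was not called (adjusted p = 0.064). Phgdh, the entry enzyme of serine synthesis, rose by 1.40 ± 0.19 and 0.82 ± 0.14. Pycr1 and Aldh18a1, enzymes of proline synthesis, rose by 0.88 ± 0.18 and 0.69 ± 0.10 with vehicle and by 0.98 ± 0.13 and 0.50 ± 0.08 with the inhibitor. Without the 2 shallowest libraries the counts were 13 and 12, and without the 2 numbered apart 8 and 10. Of the 27 listed targets with a RefSeq window, 10 held TGATGNAA in any of their windows, where 3.97% of all windows, counted singly, did. Of these, Chac1, Pycr1, Nupr1 and Pck2 were called higher after crush with vehicle. Asns, Trib3, Jdp2, Slc7a11 and Vldlr were not, and Fgf21 did not pass the filter. Whether the letters go with the rise was not tested.

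**Figure D4:**
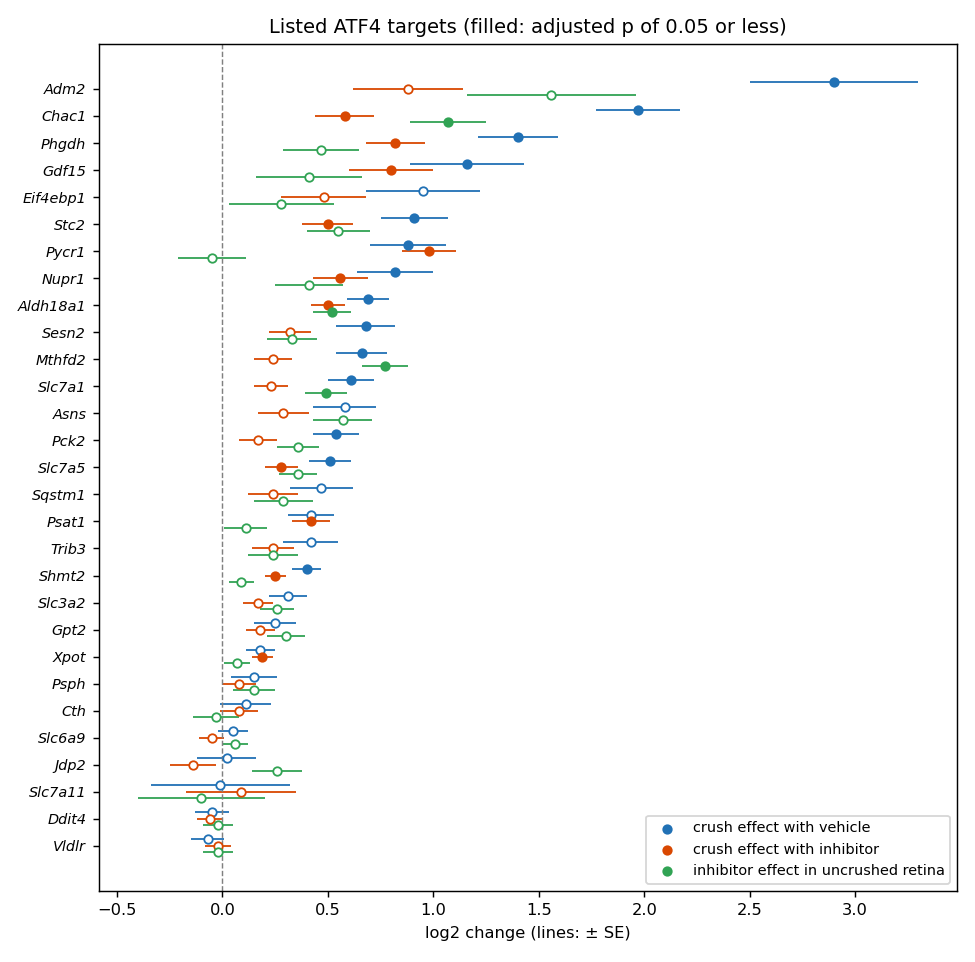
Log2 changes (x axis, points) with SE (lines) of the 29 tested ATF4 targets (rows) for crush with vehicle (blue), crush with inhibitor (orange) and the inhibitor in uncrushed retina (green); filled points have an adjusted p of 0.05 or less. The blue and green changes share the uncrushed vehicle libraries; 14 blue, 11 orange and 4 green points are filled, all to the right of 0.

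In uncrushed retina, where 0.263% of tested genes were called higher with the inhibitor, 4 of the 29 ATF4 targets were higher and 0 lower. They were Mthfd2, a mitochondrial folate enzyme (0.77 ± 0.11, adjusted p = 0.00535), Chac1 (1.07 ± 0.18, adjusted p = 0.0145), Aldh18a1 (0.52 ± 0.09, adjusted p = 0.0159) and the arginine transporter Slc7a1 (0.49 ± 0.10, adjusted p = 0.0332). DESeq2 called 10 higher and limma 5, while edgeR called 0 of the 29 without the 2 shallowest vehicle libraries and 2 without the 2 numbered apart. The median log2 change was 0.29 with all libraries, 0.21 without the shallowest and 0.35 without those numbered apart. In crushed retina 0 of 29 were called, where 0.505% of all tested genes were called in either direction (edgeR). Of the 29, 3 had an unadjusted edgeR p under 0.05, and DESeq2 called 1 and limma 0. The difference of the crush effects was called for 0 of 29, where 0.0103% of all tested genes were (edgeR). Of the 29, 7 had an unadjusted edgeR p under 0.05, and DESeq2 called 1 and limma 0. Counts of 0 in 29 lie near both shares. The median difference was -0.19, with a negative sign in 25. Chac1 had a difference of -1.39 ± 0.24 (adjusted p = 0.139). The uncrushed vehicle libraries enter the comparison in uncrushed retina, the difference of the crush effects and the crush effect with vehicle.

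Genes around the other members, in shorter lists, moved in smaller numbers. Of all tested genes 1.77% were called higher after crush with vehicle and 3.29% with the inhibitor. A count of 1 gene in lists this short does not separate a list from those shares. Of 7 tested CHOP targets 2 rose with either drug, the BH3-only death genes Bbc3 (0.93 ± 0.16 with vehicle, 0.45 ± 0.12 with the inhibitor) and Bcl2l11 (0.53 ± 0.12 and 0.38 ± 0.09), and 1 of the 7 rose with vehicle without the 2 libraries numbered apart. Bcl2l11 was the 1 of 7 that fell with the inhibitor in crushed retina (-0.51 ± 0.10, adjusted p = 0.0333), where 0.376% of all tested genes were called lower. It was not called there without either pair of vehicle libraries. Of 8 tested C/EBPβ targets, the chemokine gene Ccl2 (3.55 ± 0.72 and 2.61 ± 0.61) and Cebpd rose with either drug, but 1 of the 8 rose with vehicle without either pair of vehicle libraries. Of 11 genes of the mitochondrial stress response, in which ATF5 is a known factor, the protease gene Lonp1 rose with vehicle (0.33 ± 0.06) and had 0.17 ± 0.05 with the inhibitor (adjusted p = 0.0591).

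Few genes of the machinery that sits above ATF4 were called, and a list this short would hold few at the shares of all tested genes. It held 19 tested genes for eIF2α kinases, eIF2 and eIF2B subunits, phosphatase adaptors and stress relays. After crush with vehicle 0 of the 19 were called, where 2.63% of all tested genes were called in either direction (edgeR). Of the 19, 3 had an unadjusted edgeR p under 0.05, and DESeq2 and limma called 1 each. The smallest p there was that of Ppp1r15a, the inducible phosphatase subunit GADD34 (0.27 ± 0.07, adjusted p = 0.0552). With the inhibitor 1 of the 19 rose after crush, where 3.29% of all tested genes were called higher. That gene was Eif2ak2, the RNA-activated kinase PKR, which interferon also induces (1.33 ± 0.26, adjusted p = 0.00405). Its change with vehicle was 0.78 ± 0.34 (edgeR adjusted p = 0.386). The difference of its crush effects, 0.55 ± 0.43, was not called. In uncrushed retina 1 of the 19 was higher with the inhibitor, where 0.263% of all tested genes were called higher. This was the constitutive phosphatase subunit gene Ppp1r15b (0.31 ± 0.06, adjusted p = 0.0402), which was not called without either pair of vehicle libraries. RNA levels of these genes do not show kinase activity.

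The genes most like each member across the 16 libraries were found by Pearson's r of log2 CPM among 13887 genes. These points share libraries and group differences, and the values describe these libraries only. For Atf3 they were Tnfrsf12a, the receptor Fn14 (r = 0.982), Antxr2 (0.973) and Rnf144b (0.965), and with group means removed r was 0.697, 0.718 and 0.503. For Atf5 they were the secreted phosphoprotein Spp1 (0.966), Rab7b (0.955) and Cox6a2 (0.953), and for Ddit3 haem oxygenase 1, Hmox1 (0.973), Gnb3 (0.966) and Spp1 (0.956). Ddit3 and Hmox1 also kept r = 0.900 within groups. For Atf4 they were Cops2 (0.912), Ddx28 (0.909) and the arginyl-tRNA synthetase gene Rars (0.909), with 0.837, 0.837 and 0.727 within groups. For Cebpg they included the threonyl- and methionyl-tRNA synthetase genes Tars (0.940) and Mars1 (0.938), with Cfap97 (0.939) between them. For Cebpb they were Jpt1 (0.882), Sertad1 (0.871) and Tapbp (0.863). With group means removed r was 0.622, 0.741 and 0.597 for the genes of Atf5, 0.806 and 0.767 for Gnb3 and Spp1 with Ddit3, 0.538, 0.549 and 0.600 for Tars, Mars1 and Cfap97 with Cebpg, and 0.844, 0.825 and 0.792 for the genes of Cebpb.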

How the data were processed

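Poly(A) RNA from mouse retinas was sequenced as single reads of 50 bases with a kit that does not mark strand (TruSeq RNA v2, per the labels' protocols). The authors' deposited counts are whole numbers of reads per gene, and their deposited nRPKM values are RPKM scaled per library, per the file headers. The submitters' processing notes name GSNAP and GRCm38; the versions, the annotation and how the scaling factor was made are not stated there or in the other sources. Symbols were found in RefSeq for 31049 of 36528 identifiers.

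Counts were tested in edgeR 4.0.16 (R 4.3.3; TMM, filterByExpr, quasi-likelihood F test, two-sided) with 1 mean for each of the 4 groups of 16 libraries, 12 residual and 5.27 prior degrees of freedom, and Benjamini-Hochberg adjustment over 19391 genes. Intervals are 95%. limma 3.58.1 on log2(nRPKM + 0.1), DESeq2 1.42.0, other scalings and filters, and fits without libraries were alternatives. The script was tested on simulated data. Replicates differed beyond sampling noise (chi-square per degree of freedom 6.73 to 42.8) and their numbers follow record order, pairing nothing.

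The members and lists were chosen with earlier results of these data known, and 1 listed bZIP gene is not reported here. From each pathway list up to 3 called genes with the smallest p were named per contrast, or 1 if none was called; Junb and Fosl2 (1 comparison each) and Slc7a1 complete short counts and were named after their values were seen. Likeness was computed over genes averaging 1 CPM or more, 3 being named per member.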

Additional observations from a re-analysis of the deposited data

Results flagged for a closer look

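Of 12 groups of 5 libraries (the 6 genes in uncrushed and crushed DLKi retina), 1 held a library apart from the rest. Atf3 in uncrushed DLKi replicate 2 stood at 2.58 nRPKM, and the other 4 libraries of that group lay between 2.08 and 2.22. The gap to the nearest library, as a share of the group's range, was above the 95% critical value of 0.71, which chance passes in about 1 of 20 groups. That library was still below all 3 uncrushed vehicle libraries, the lowest of which stood at 2.94 nRPKM.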

How the results depend on the processing

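No paired analysis was possible because the labels give no replicate numbers and tie no retina to a mouse. The called changes (Atf3, Atf5 and Ddit3 after crush with either drug, Atf3 with the inhibitor in crushed retina) kept their direction and stayed called in 25 of 25 alternatives each. The range for Atf3 in crushed retina was -1.41 to -1.14 (largest adjusted p = 0.0307). Cebpg after crush with the inhibitor (0.15, adjusted p = 0.059) was called with library size only (0.17), with a filter of 1 CPM (0.15), with DESeq2 (0.14) and without the 2 shallowest libraries (0.15), and ran from 0.14 to 0.17 with 1 library left out, where it was called without uncrushed vehicle replicate 1 (0.15, adjusted p = 0.0497). DESeq2 also called Atf4 (0.34), Atf5 (0.36) and Cebpg (0.16) with the inhibitor in uncrushed retina. Cebpb turned direction without the 2 vehicle libraries numbered apart, to 0.26 in crushed and 0.21 in uncrushed retina. With 1 library left out Cebpb ran from -0.36 to 0.27 in crushed retina (crushed vehicle replicate 2 gave 0.27 and crushed DLKi replicate 5 gave 0.02) and from -0.35 to 0.21 in uncrushed retina (uncrushed vehicle replicate 3 gave 0.21). Its difference of crush effects ran from -0.34 to 0.43, with -0.34, -0.19, -0.06, -0.04, -0.08, -0.09 and -0.03 on the other side, and that of Cebpg from -0.05 to 0.01. None of these was called.

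Counts over all genes moved more. Crush with vehicle called 510 genes, 281 with only its 2 groups, 258 without the libraries numbered apart and 276 to 506 with 1 left out. The inhibitor in crushed retina called 98, against 45 with 2 groups, 411 with DESeq2, 53 without the shallowest, 38 without those numbered apart and 22 to 144 with 1 left out. In uncrushed retina it called 122, against 3, 623 with DESeq2, 11 without the shallowest and 17 to 205. The difference called 2, against 5 with DESeq2, 1 without either pair and 1 to 2. The causes were not tested. The wide spread of Cebpb within groups, with an SD of 28.3% to 42.2% of its mean, limits what can be said of it.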
